A study of Mus musculus with 24 samples.

Results

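The immediate early genes Fos, Fosb, Jun, Junb, Egr1, Ier2, Ier3 and Atf3 and the Myc factors Myc and Mycn were followed across mouse pluripotent stem cell lines and early embryonic tissue. They were chosen by name, and every probe whose accession leads to one of them was taken. This gave 10 genes of 20616 and 10 probes of 55681, 1 probe per gene, and all 10 entered every test. The arrays hold 10 spots of the Fos probe and 2 of the Myc probe, which were averaged.

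Immediate early genes are switched on within minutes of a growth factor, cytokine or stress signal, without new protein synthesis, largely through the Erk pathway, serum response factor and Creb. Their products, among them the Fos and Jun proteins that pair into the AP-1 factor and the zinc finger factor Egr1, pass the signal on to later genes, and the transcripts are short-lived. Myc and Mycn are related factors that drive growth and ribosome production in proliferating cells, and Mycn is a main Myc factor of the early embryo. In mouse embryonic stem cells (mESCs), leukaemia inhibitory factor and Stat3 are known to feed Myc, Junb and Socs3, and fibroblast growth factor feeds Erk.

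Expression was measured on 24 single-colour arrays, 2 for each of 12 groups. Of the epiblast stem cell (EpiSC) lines, pluripotent lines that resemble the epiblast after implantation, 129Ba1, 129Ba2 and BNa17 were derived with a Wnt inhibitor, and Wt1 and 129C1 by the original method. A further group was 129C1 treated with IWP2, which blocks the acylation and release of Wnt proteins. The mESC groups were J1 treated with 2i, which in usual practice combines a Mek and a Gsk3 inhibitor, and untreated R1 and J1. The tissues, dissected by hand, were epiblast from embryonic days 5.5 (E5.5) and 6.5 (E6.5), and ectoderm of the embryo at day 7.5 (E7.5). The lines grew on feeder cells and were separated from them before RNA extraction. The labels do not say whether replicates are separate cultures or dissections, so p-values measure the spread between arrays or lines, which may be technical in part.

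A level is the log2 of the processed signal after division by the array's 75th percentile, and its value depends on the probe, so no gene's level is set against another's. The share of probes well above background was 36.7% to 53.2% per array, lowest in BNa17 replicate 1, and replicate arrays correlated at 0.966 to 0.989. Pou5f1, Sox2 and Nanog, the core pluripotency factors, were well above background on both arrays of every group. Zfp42, a marker of the mESC state, averaged 7.69 in J1 with 2i, 6.68 in R1 and 6.80 in J1, and was below background in 5 of the 6 EpiSC groups. In these bulk samples, fewer cells of a type and less RNA per cell cannot be told apart. Slides matter for what can be read: E6.5 and E5.5 shared a slide, as did 129C1 and the lines derived with Wnt inhibitor. IWP2 and untreated 129C1, 2i and untreated J1, and R1 and J1 lay on different slides. So did EpiSCs and mESCs, and lines and epiblast, so slide and group cannot be told apart in these comparisons. Wt1 lay on a slide apart from the other untreated EpiSC lines.

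The 2 arrays of the E5.5 group, and likewise of the E6.5 group, stood apart from each other in these genes, which touches every result on tissue below. At E5.5, Fos read -3.37 (not well above background) in replicate 1 and 1.08 in replicate 2, and at E6.5 it read -5.28 (not well above background) and 0.42. Replicate 2 was at least 21.9-fold higher at E5.5 and at least 28.0-fold higher at E6.5. Egr1, Jun and Fosb were also higher on replicate 2 at both stages, by 2.34 and 3.57, 1.43 and 2.61, and 2.27 and 1.71 at E5.5 and E6.5. Atf3 was well above background on E6.5 replicate 2 alone, at least 5.77-fold above replicate 1, and on neither E5.5 array. Ier3 ran the other way at E5.5, with replicate 2 lower (gap -1.17). Myc differed between replicates by 0.16 and 0.15 and Mycn by -0.21 and -0.16. In each group 6 of the 10 genes had measured replicate values at least 2-fold apart, Atf3 at E5.5 among them below background on both arrays, against 6.89% of all genes at E5.5 and 3.37% at E6.5. Of 28 other immediate early genes, 17.9% had such a gap at each of these stages. Their median gap was 0.16 at E5.5 and 0.36 at E6.5, against 0.86 and 1.38 for the 10 genes. At E7.5 none of the 10 genes had such a gap.

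Markers of neighbouring tissue moved with this split at E5.5. The summed level of 7 visceral endoderm markers was 6.75 in E5.5 replicate 1 and 77.1 in replicate 2, with all 7 well above background on both. It was 16.1 and 25.1 at E6.5 and 1.30 to 1.84 at E7.5, where 2 of the 7 were well above background. The 6 extraembryonic ectoderm markers had a median gap of -1.73 at E5.5, lower on replicate 2, and 0.57 at E6.5. The 16 heat shock and stress genes had a median gap of -0.17 at E5.5 and 0.06 at E6.5. The part of these lists in the gaps of the immediate early genes was not tested.

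**Figure D1:**
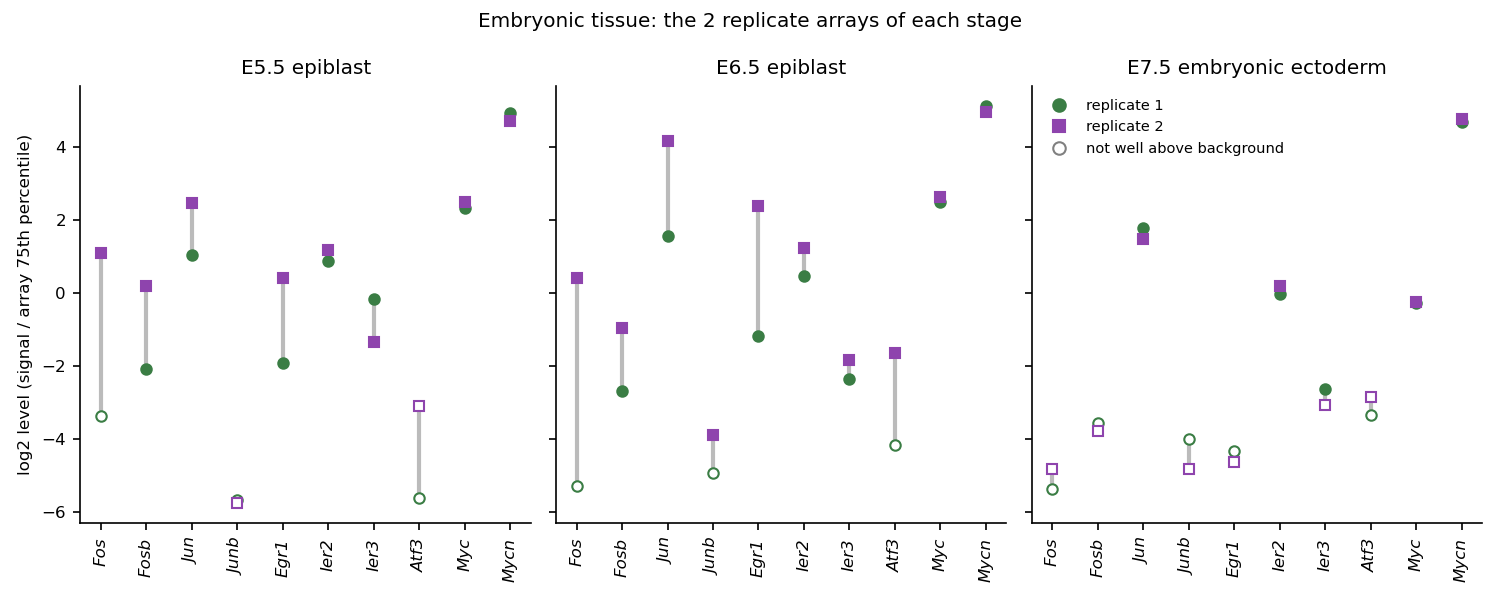
Levels of the 10 genes on the 2 arrays of each tissue stage (log2 of signal over the array's 75th percentile; circles replicate 1, squares replicate 2, open symbols not well above background). Fos, Egr1, Jun, Fosb and Atf3 lie far apart at E5.5 and E6.5, Myc and Mycn lie close together, and no gene is 2-fold apart at E7.5; heights should not be compared between genes because each has its own probe.

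Promoter sequence was available for 7 of the 10 genes, as RefSeq windows on GRCm38.p6, and was searched on both strands from 250 bases before to 50 bases after the start. The letters TGACG, the core of the cyclic AMP response element that Creb and Atf proteins are known to bind, were present in Fos, Fosb, Junb and Atf3. The same letters are in 20.8% of all 32851 windows. Fos has them at positions -129 to -125 and -66 to -62 from the start, Fosb at -60 to -56, Junb at -106 to -102, and Atf3 has the reverse letters CGTCA at -7 to -3. The windows of 3 of these genes are shown because Fos and Junb separate EpiSCs from mESCs below, Junb alone of the 3 passed with 2i, and Atf3 passed in neither comparison. Capitals mark these letters, and each window runs 5′ to 3′ on the gene's own strand.
Fos, chr12:85473640-85473889, plus strand: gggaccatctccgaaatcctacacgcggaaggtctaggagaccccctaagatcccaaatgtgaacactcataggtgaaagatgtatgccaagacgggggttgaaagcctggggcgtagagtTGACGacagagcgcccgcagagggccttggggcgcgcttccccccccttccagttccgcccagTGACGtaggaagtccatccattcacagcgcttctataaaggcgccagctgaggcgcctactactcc
Junb, chr8:84978749-84978998, minus strand: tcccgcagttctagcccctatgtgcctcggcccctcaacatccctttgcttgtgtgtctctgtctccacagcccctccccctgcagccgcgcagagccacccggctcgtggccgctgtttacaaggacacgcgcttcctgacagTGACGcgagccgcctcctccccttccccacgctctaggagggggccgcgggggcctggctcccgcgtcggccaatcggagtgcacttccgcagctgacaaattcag
Atf3, chr1:191183334-191183583, minus strand: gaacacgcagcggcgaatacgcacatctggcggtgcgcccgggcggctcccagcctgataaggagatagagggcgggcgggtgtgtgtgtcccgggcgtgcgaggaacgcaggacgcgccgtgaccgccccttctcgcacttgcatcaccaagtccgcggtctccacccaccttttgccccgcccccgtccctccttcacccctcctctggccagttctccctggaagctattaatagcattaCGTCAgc

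The full element TGACGTCA, found in 1.79% of windows, the AP-1 site TGANTCA, in 7.81%, and the CArG box of serum response factor, in 1.63%, were in the searched windows of none of the 7 genes. The TATA letters TATAAA were in Fos at -33 to -28 and in Junb at 1 to 6, against 13.6% of windows. These are matches of letters and say nothing of a factor's presence. Egr1, Ier2 and Myc had no window, and sites further from the start than the windows reach could not be found.

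The genes differed widely in how far their levels spread over the 12 groups. Egr1 had the widest range of group means, 9.37 on the log2 scale, with R1 highest at 4.89 and E7.5 lowest at -4.47. Fos spanned 7.5, Fosb 6.07, Atf3 5.92 and Junb 5.42. Ier3 spanned 4.68, Myc 3.28, Ier2 3.06, Mycn 2.75 and Jun 2.63. Where the lowest group is not well above background, as for Egr1, Fos, Fosb, Junb and Atf3, the range holds a value that is only a bound.

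R1 had the highest mean of Fos, Fosb, Junb, Egr1, Ier2 and Ier3. For each of these except Ier3, the mESC groups took the first 3 places. In Fos the order was R1, J1 with 2i and J1, whose arrays did not overlap, although the lower array with 2i (1.84) lay just above the upper array of J1 (1.83). E5.5, the EpiSC lines, E6.5 and IWP2-treated 129C1 followed, and all neighbours among them overlapped. E7.5 had the lowest mean and stood clear of IWP2-treated 129C1. It overlapped with E6.5, whose replicate 1 (-5.28) lay between the E7.5 arrays (-5.36 and -4.82), all not well above background. In Egr1 the 3 mESC groups overlapped with each other and stood above 129Ba1 and 129C1, and E7.5 lay below all others. In Ier2 all neighbours from J1 with 2i downwards overlapped, so their order is not resolved.

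Jun was highest in Wt1 at 4.25 and in J1, whose arrays overlapped, and lowest in E5.5 and E7.5, which also overlapped. Atf3, a stress-responsive factor that pairs with Jun, was highest in 129Ba2 at 1.58 and lowest in the 3 tissues, which overlapped. Myc was highest in E6.5 at 2.56 and E5.5, which overlapped, and from Wt1 downwards every pair of neighbouring groups overlapped. Mycn was highest in J1 at 5.51 and R1, followed by the 3 tissues, and all EpiSC groups except 129Ba1 lay below every other group. IWP2-treated 129C1 had the lowest mean of both Myc, at -0.73, and Mycn, at 2.76.

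**Figure D2:**
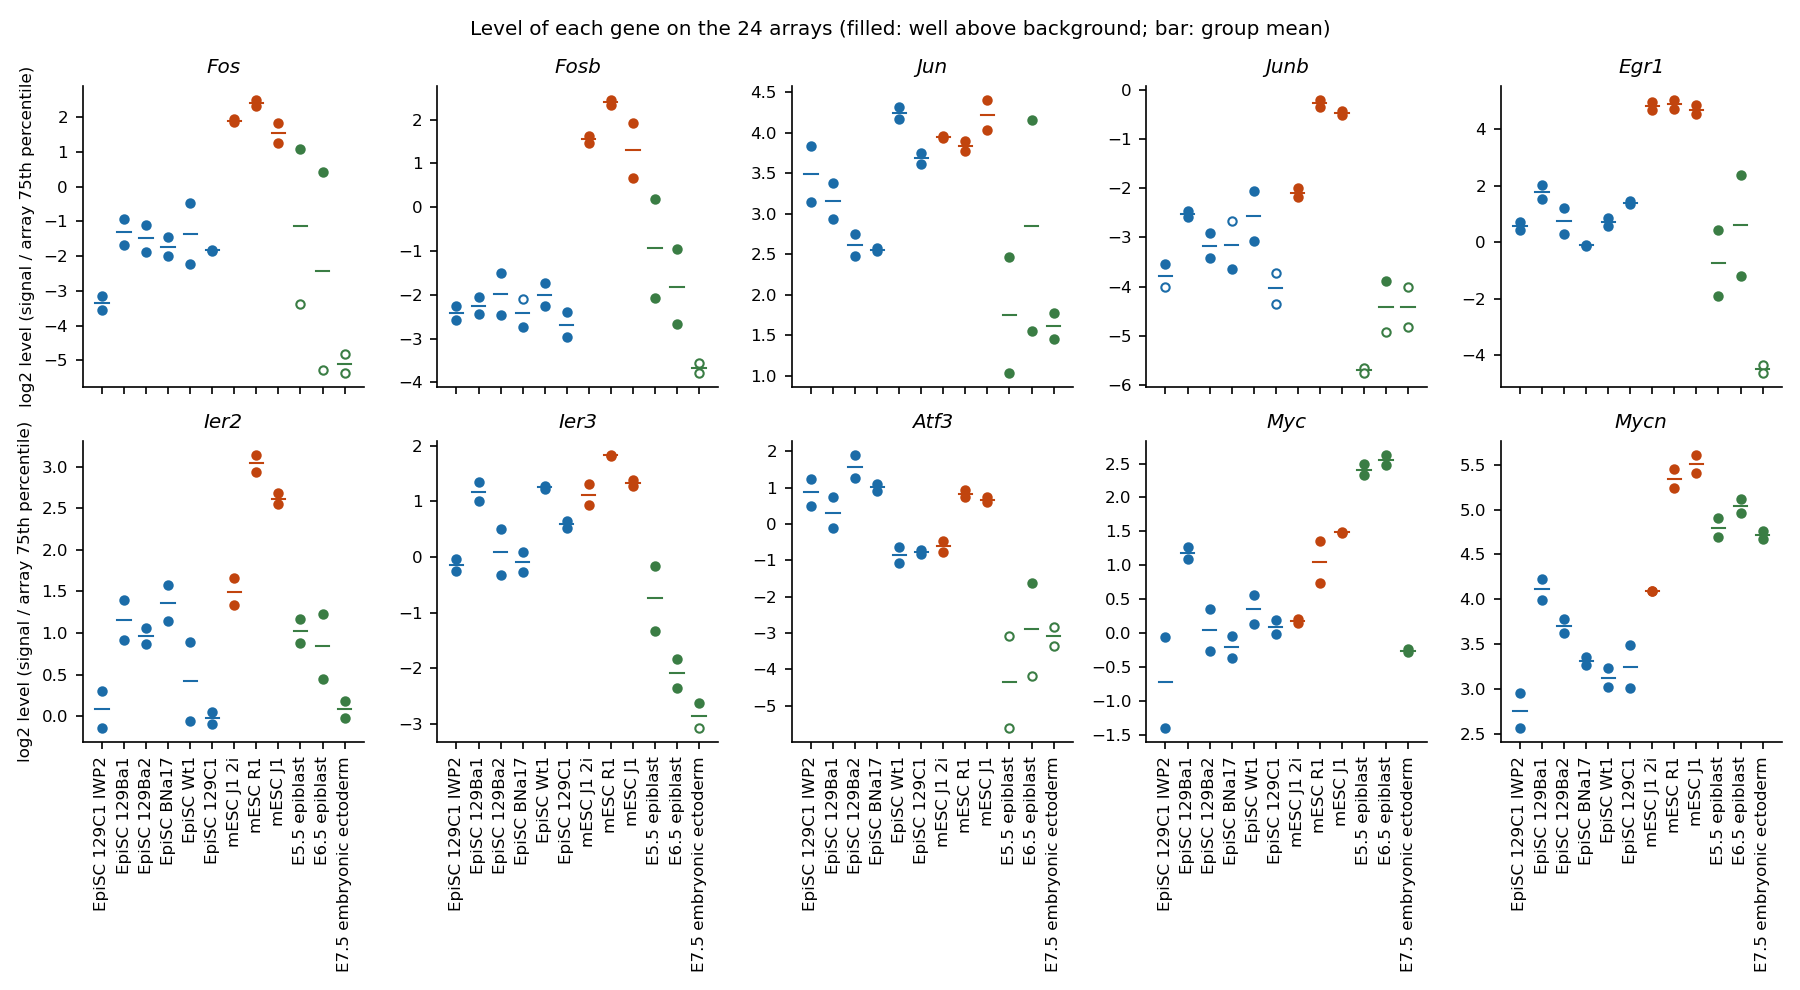
Level of each gene on all 24 arrays (log2 of signal over the array's 75th percentile; filled points well above background, open points not, bars the mean of 2 arrays; blue EpiSC, orange mESC, green tissue). The mESC groups lie at the top for Fos, Fosb, Junb, Egr1 and Ier2 and the epiblast groups at the top for Myc. E7.5 lies at the bottom for Fosb and Egr1 and, together with E6.5 replicate 1, for Fos.

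Group means of several members followed each other across the 12 groups, which is given as a description over groups that share slides and lines. Pearson's r was 0.94 for Fos and Fosb, 0.92 for Fos and Egr1, 0.71 for Myc and Mycn and -0.51 for Atf3 and Myc. Among 12307 named genes, Fos was most like Stk38l (0.97), Arid5a (0.96) and Tmem40 (0.96). Fosb was most like Itpk1 (0.97), Mybl2 (0.97) and Calml4 (0.97), and Jun most like Gem (0.96), Zc3hav1 (0.91) and Mrpl38 (0.91). For Junb these were Prkag1 (0.96), Slc25a20 (0.95) and Htra1 (0.95), and for Egr1 Tnfsfm13, Wdr47 and Cgas (0.95 each). Ier2 was most like Mrps26 (0.98), Ssr2 (0.97) and Twf2 (0.95), and Arpc1b (0.98) and Sncg (0.97) were among the 3 genes most like Ier3. Atf3 was most like Rab4b, Stmn2 and Prss23 (0.93 each), and Myc most like Rad52 (0.92), Ddi2 (0.91) and Ccdc116 (0.91). For Mycn the 3 nearest were Nifk (0.99), Urb2 (0.98) and Urb1 (0.98).

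EpiSC lines were compared with mESC lines, taking the mean of each line's arrays as 1 replicate (5 lines against 2). Of the 10 immediate early and Myc genes, 6 were lower in EpiSCs, 0 were higher, and 4 did not pass the test, which asked for an adjusted p below 0.05 and at least a 2-fold difference. Over all 14441 genes, 25.1% passed, 12.9% as higher and 12.2% as lower. The AP-1 subunits Fos, Fosb and Junb, the factor Egr1, the early response gene Ier2 and Mycn made up the 6.

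Fos ranged over the 10 EpiSC arrays from -2.24 to -0.47 with a median of -1.76, against 2.50 and 2.33 in R1 and 1.25 and 1.83 in J1. The highest EpiSC array, in Wt1, lay below the lowest mESC array, and Fos was 11.5-fold lower in EpiSCs (log2 difference -3.52 ± 0.28 SE, limma adjusted p = 0.000173). Fosb ranged from -2.97 to -1.5 with a median of -2.33 in EpiSCs, against 2.34 and 2.45 in R1 and 0.67 and 1.92 in J1. It was 17.3-fold lower (-4.11 ± 0.33, limma adjusted p = 0.000204), again with no overlap, which held for 36.9% of all genes.

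Junb, the AP-1 subunit that often opposes Jun, was dim in EpiSCs, at -4.35 to -2.06 with a median of -3.00 and well above background on 7 of 10 arrays. Against this it read -0.35 and -0.21 in R1 and -0.52 and -0.44 in J1, a 6.55-fold lower level in EpiSCs (-2.71 ± 0.41, limma adjusted p = 0.00267). Egr1 ranged from -0.11 to 2.04 with a median of 1.05 in EpiSCs, against 5.05 and 4.74 in R1 and 4.53 and 4.85 in J1. It was 14.7-fold lower (-3.87 ± 0.47, limma adjusted p = 0.00116), and all EpiSC arrays were below all mESC arrays.

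Ier2 ranged from -0.09 to 1.58 with a median of 0.91 in EpiSCs, against 2.94 and 3.14 in R1 and 2.55 and 2.69 in J1, and was 4.15-fold lower (-2.05 ± 0.39, limma adjusted p = 0.00674). Without R1 its difference was -1.84 and its limma adjusted p was 0.0682. Mycn ranged from 3.01 to 4.23 with a median of 3.42 in EpiSCs, against 5.45 and 5.24 in R1 and 5.41 and 5.61 in J1. It was 3.8-fold lower (-1.93 ± 0.29, limma adjusted p = 0.0027).

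The remaining 4 genes overlapped between the groups. Jun, the main partner of Fos, differed by -0.78 with a 95% interval of -1.89 to 0.33, and Ier3, an early gene linked to cell survival, by -0.98 with an interval of -1.95 to 0.00. Atf3 differed by -0.49 with an interval of -2.08 to 1.09. Myc differed by -0.97 with an interval of -1.84 to -0.10 (limma adjusted p = 0.0763), and it passed without R1 replicate 2 (-1.13, limma adjusted p = 0.0437) or without line 129Ba1 (-1.20, limma adjusted p = 0.0107). These intervals leave room for differences of over 2-fold, so the 4 genes are not shown to be alike in both cell types.

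Other genes of the same response were also lower in EpiSCs. Of 28 tested immediate early genes outside the 10, 14 were lower and 0 higher, with a median difference of -1.05, against -0.01 over all genes. They included Sgk1, a serum- and glucocorticoid-induced kinase (-4.40 ± 0.69), Egr2 (-4.21 ± 0.69, well above background on 3 of 10 EpiSC arrays) and the synaptic gene Arc (-3.57 ± 0.92). Zfp36, which speeds the decay of such transcripts, was not well above background on any EpiSC array and was at least 4.18-fold lower. Of 17 upstream regulators, 4 were lower: the cytokine receptor subunits Lifr (-2.89 ± 0.38) and Il6st (-1.50 ± 0.31), and the factors Srf (-1.12 ± 0.18) and Atf1 (-1.09 ± 0.25). Of 11 Erk feedback and Etv genes, 4 were lower, namely Spry2 (-2.69 ± 0.63), Spry4 (-2.50 ± 0.70), Etv5 (-1.53 ± 0.22) and Etv4 (-1.49 ± 0.25).

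Among 9 Myc partners and antagonists, Mycl, the third Myc factor, was higher in EpiSCs (1.95 ± 0.42) and Mxd4 was higher (1.08 ± 0.34), while the antagonist Mnt was lower (-1.60 ± 0.24). Of 20 Myc target genes, 3 were lower and 0 higher, the nucleolar genes Nolc1 (-1.37 ± 0.17) and Nop58 (-1.08 ± 0.17) and the growth gene Pa2g4 (-1.08 ± 0.16). The median of these 20 was -0.68. The heat shock and stress list moved as well, with 5 of 16 lower, led by the small heat shock gene Hspb1 (-3.41 ± 0.30). The 10 feeder fibroblast markers summed to 66.5 to 349 on EpiSC arrays and 59.5 to 99.0 on mESC arrays, all well above background on every array, and 0 passed the test. Their part in the differences was not tested.

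**Figure D3:**
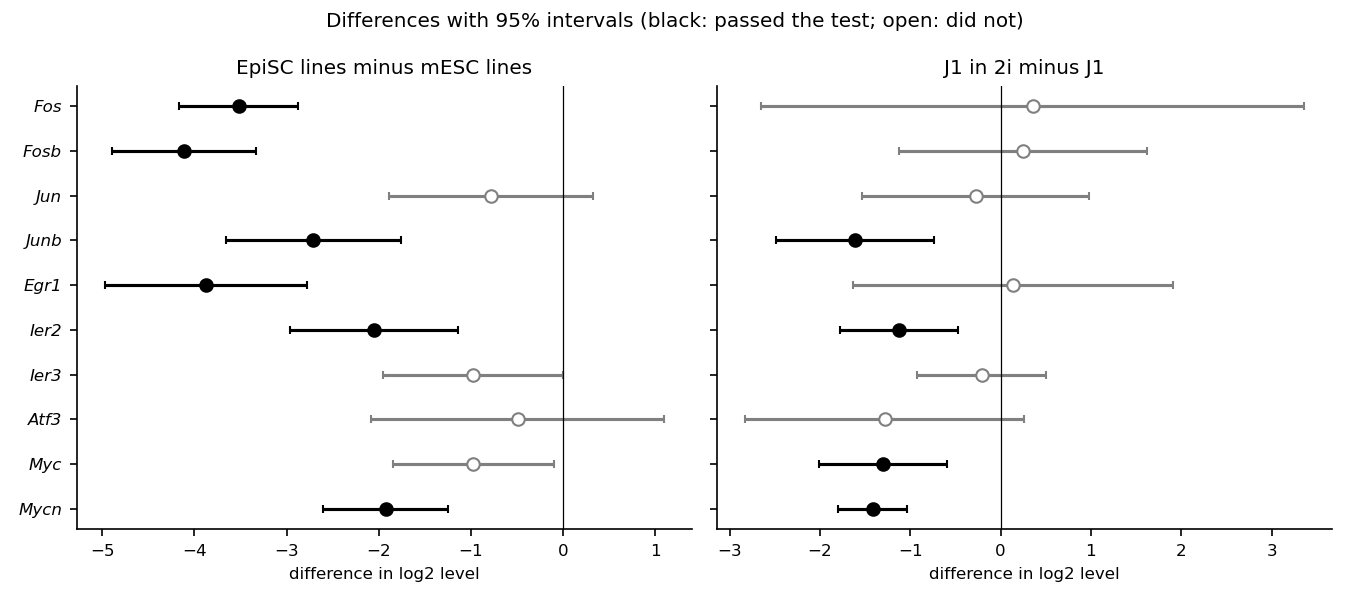
Difference in log2 level with its 95% interval for each gene, EpiSC lines minus mESC lines on the left and J1 in 2i minus J1 on the right (black passed the test, open did not). Fos, Fosb and Egr1 lie far below 0 on the left and span 0 on the right, while Junb, Ier2 and Mycn lie below 0 in both.

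Treatment of J1 with 2i was compared with untreated J1 (2 arrays each). Junb, Ier2, Myc and Mycn were lower with 2i, 0 genes were higher, and 6 did not pass. Over all 15085 genes, 13.1% passed, 6.04% as higher and 7.03% as lower. Mycn read 4.09 and 4.10 with 2i, against 5.41 and 5.61 in untreated J1, and was 2.67-fold lower (-1.42 ± 0.18, limma adjusted p = 0.000101). Mycn passed in all 14 alternative settings tried.

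Junb read -2.01 and -2.18 with 2i, against -0.52 and -0.44 without, a 3.06-fold lower level (-1.61 ± 0.41, limma adjusted p = 0.011). Myc read 0.21 and 0.16 with 2i, against 1.48 and 1.5 without, a 2.46-fold lower level (-1.30 ± 0.33, limma adjusted p = 0.0113). Ier2 read 1.33 and 1.66 with 2i, against 2.55 and 2.69 without, a 2.17-fold lower level (-1.12 ± 0.31, limma adjusted p = 0.0157). In each of these the 2 groups did not overlap, as held for 73.8% of all genes. Leaving out any 1 of the 4 arrays ended the call for Myc. The calls for Junb and Ier2 ended without either untreated J1 array, for Junb also without 2i replicate 2 and for Ier2 also without 2i replicate 1, with limma adjusted p of 0.0504 to 0.108 over the 3 genes. With another background correction (normexp) Junb (-0.78) and Ier2 (-0.99) stayed below 2-fold, as did Ier2 with quantile normalization.

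Fos and Egr1, among the genes furthest below mESC levels in EpiSCs, did not pass with 2i. Fos read 1.84 and 1.95 with 2i, against 1.25 and 1.83 without, and Egr1 read 4.98 and 4.67, against 4.53 and 4.85. The differences were 0.36 for Fos (95% interval -2.65 to 3.36) and 0.14 for Egr1 (-1.63 to 1.91). These intervals use a spread shared with the E5.5 and E6.5 arrays. Without tissue arrays in the fit, a choice made after the data were seen, they narrowed to -0.69 to 1.40 for Fos and -0.47 to 0.75 for Egr1. Fosb differed by 0.25, with -0.66 to 1.16 in that fit, and Jun by -0.28, with -0.77 to 0.22.

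Atf3 read -0.77 and -0.46 with 2i, against 0.75 and 0.59 without, also with no overlap, as for 73.8% of all genes. Its difference of -1.28 did not pass with all arrays (limma adjusted p = 0.206) and passed without tissue arrays (-1.28 ± 0.32, limma adjusted p = 0.0134). Ier3 differed by -0.21 with an interval of -0.92 to 0.50. Since 2i samples had a slide and scan day of their own, treatment and slide cannot be told apart.

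Of 28 other immediate early genes, 4 were lower with 2i and 0 higher, with a median of -0.50. These were the MAP kinase phosphatase gene Dusp2 (-1.90 ± 0.30), Ier5 (-1.71 ± 0.36), the nuclear receptor Nr4a2 (-1.70 ± 0.45) and the antiproliferative gene Btg2 (-1.08 ± 0.31). Of the 11 Erk feedback and Etv genes, Dusp5, a nuclear Erk phosphatase, was lower (-1.95 ± 0.66) and the other 10 did not pass. Mycl was lower (-1.48 ± 0.29), as was the cyclin gene Ccnd2 among the 20 Myc targets (-1.53 ± 0.32), while Elk1, a partner of serum response factor, was higher (1.1 ± 0.34). Among stress genes Cdkn1a (1.14 ± 0.39) and Asns (1.05 ± 0.26) were higher. Markers of cell state moved with 2i as well. Of 4 primed epiblast markers, 4 were lower (median -2.42), with sums of 104.7 to 109.8 with 2i, against 281 to 282 without. Of 6 nascent mesoderm markers, 2 were lower (median -1.29), with sums of 15.9 to 17.8, against 19.6 to 19.9. Of 6 naive pluripotency markers, 0 passed (median 0.81), although their sums were 623 to 625, against 293 to 342. The part of these lists in the differences was not tested.

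Between the mESC lines R1 and J1, 0 of the 10 genes passed by limma, against 0.504% of all genes, and 0 of the 10 had an unadjusted p below 0.05, against 9.31% of all genes. For 7 of the 10 the 2 arrays of one line lay outside those of the other, which held for 45.7% of all genes. Fosb was the furthest apart, at 2.34 and 2.45 in R1 and 0.67 and 1.92 in J1 (difference 1.1, 95% interval -0.27 to 2.48).

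IWP2-treated 129C1 was set against untreated 129C1 (2 arrays each). Of the 10 genes, 0 passed by limma, against 3.88% of all genes, and 4 had an unadjusted p below 0.05, namely Ier3, Atf3, Myc and Mycn, against 17.6% of all genes. Atf3 read 1.23 and 0.50 with IWP2, against -0.81 and -0.72 without, and did not overlap, as held for 53.7% of all genes. Its difference of 1.63 ± 0.72 had a limma adjusted p of 0.252 with all arrays and 0.00936 without tissue arrays. Fos read -3.16 and -3.54 with IWP2, against -1.84 and -1.83 without, again with no overlap (-1.51 ± 1.41, limma adjusted p = 0.67). It passed in a fit of these 4 arrays alone (limma adjusted p = 0.0241) and not without tissue arrays (0.107).

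Myc read -0.06 and -1.40 with IWP2, against 0.19 and -0.02 without, and differed by -0.81 (limma adjusted p = 0.21). Without IWP2 replicate 1 this was -1.48 (limma adjusted p = 0.00781), so it rests on the replicate kept. Ier3 read -0.04 and -0.26, against 0.53 and 0.65, and Mycn read 2.95 and 2.57, against 3.49 and 3.01. They differed by -0.74 (95% interval -1.45 to -0.03) and -0.49 (-0.87 to -0.10). Egr1 read 0.71 and 0.46, against 1.36 and 1.45, without passing (-0.82, limma adjusted p = 0.704), and Jun, Junb, Fosb and Ier2 overlapped between the groups.

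Of 28 other immediate early genes, 3 were lower with IWP2 and 0 higher: Sgk1 (-2.92 ± 0.39), Arc (-1.35 ± 0.33) and Dusp2 (-1.17 ± 0.30). Dusp4, a MAP kinase phosphatase gene, was lower (-1.11 ± 0.26), as were Lifr (-1.12 ± 0.29) and Mycl (-1.36 ± 0.29), and the Myc antagonist Mxd3 was higher (1.27 ± 0.20). The 20 Myc targets had 0 passing in either direction. Nascent mesoderm markers moved with the treatment, with 3 of 6 lower and a median of -2.22. Primed epiblast markers were lower in 2 of 4 and naive pluripotency markers in 2 of 6. Of 4 ectoderm markers 2 were higher and 1 lower. Visceral endoderm markers were lower in 1 of 7 and extraembryonic ectoderm markers in 1 of 6. Of 10 feeder fibroblast markers 1 was higher. The part of these lists in the differences was not tested, and slide and treatment cannot be told apart.

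The lines derived with Wnt inhibitor were set against the original lines, with the line as replicate (3 against 2). Of the 10 genes, 0 passed by limma, against 1.46% of all genes, and 3 had an unadjusted p below 0.05, against 17.2% of all genes. Atf3 read -0.11 and 0.73 in 129Ba1, 1.25 and 1.90 in 129Ba2 and 1.1 and 0.91 in BNa17, against -1.08 and -0.62 in Wt1 and -0.81 and -0.72 in 129C1. No array overlapped between the groups, as held for 16.1% of all genes (1.78 ± 0.39, limma adjusted p = 0.116). Without 129Ba1 replicate 1, Atf3 passed (1.92, limma adjusted p = 0.049).

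Jun read 3.38 and 2.93 in 129Ba1, 2.75 and 2.48 in 129Ba2 and 2.54 and 2.58 in BNa17, against 4.32 and 4.17 in Wt1 and 3.62 and 3.75 in 129C1. It did not overlap either (-1.19 ± 0.29, limma adjusted p = 0.141). Ier2 differed by 0.96 ± 0.24 (limma adjusted p = 0.141), with an overlap through Wt1 replicate 2.

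Within 1 slide, the 3 lines derived with Wnt inhibitor could be set against 129C1 array by array, where 11.2% of all genes passed, 5.91% as higher and 5.34% as lower. Of the 10 genes, 3 were higher and 0 lower. Atf3 was 3.33-fold higher (1.73 ± 0.59, limma adjusted p = 0.0429) and Ier2 2.27-fold higher (1.18 ± 0.25, limma adjusted p = 0.00292). Ier2 read 0.92 and 1.39 in 129Ba1, 0.86 and 1.06 in 129Ba2 and 1.58 and 1.15 in BNa17, against 0.05 and -0.09 in 129C1. Junb was not well above background on either 129C1 array. With these at their lowest detected signal, it was about 1.64-fold higher in the 3 lines. The limma test used the measured difference of 1.09 (adjusted p = 0.0272). The call thus reached 2-fold only through signals not well above background. Junb was not well above background on BNa17 replicate 1 either, so the 1.64-fold is not a strict bound.

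Of 18 alternative settings, Atf3 lost its call in 7, Junb in 5 and Ier2 in 2. With either 129C1 array left out, limma adjusted p was 0.186 or 0.202 for Atf3 and 0.0562 or 0.29 for Junb, and without 129C1 replicate 2 it was 0.0511 for Ier2. Atf3 was also lost without a filter on dim probes (0.0652) and without 129Ba1 replicate 2, either 129Ba2 array or BNa17 replicate 1 (0.0504 to 0.0843). Junb was also lost with normexp (0.20, limma adjusted p = 0.507), without 129Ba2 replicate 1 (0.0572) and, under 2-fold, without BNa17 replicate 1. Ier2 was under 2-fold with normexp (0.91). Mycn differed by 0.46 (limma adjusted p = 0.0321), less than 2-fold, and Jun by -0.91 (limma adjusted p = 0.185). In a fit without tissue arrays, chosen after the data were seen, limma adjusted p was 0.00422 for Jun and 0.0523 for Mycn. Both genes stayed under 2-fold and did not pass. These arrays compare 3 lines with 1 line, so the way of derivation and the line 129C1 cannot be told apart. Other lists moved on the same arrays. Of 10 feeder fibroblast markers, 7 were higher in the 3 lines, with sums of 88.1 to 349, against 66.5 to 79.9 in 129C1. Of 16 stress genes, 1 was lower, Ddit4 (-1.33 ± 0.24), and 4 were higher, namely Chac1 (3.50 ± 0.70), Trib3 (2.50 ± 0.49), Atf4 (1.75 ± 0.26) and Gadd45a (1.48 ± 0.20). Of 6 nascent mesoderm markers, 3 were lower (median -1.72), with sums of 5.04 to 11.2, against 27.6 to 33.6 in 129C1. Visceral endoderm markers were lower in 2 of 7 and extraembryonic ectoderm markers in 2 of 6. Of 4 ectoderm markers 2 were higher and 1 lower, of 4 primed epiblast markers 1 was higher and 2 lower, and of 6 naive pluripotency markers 2 were lower. The part of these lists in the 3 differences was not tested.

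Among other immediate early genes on that slide, Arc was higher (1.58 ± 0.27), and Maff (-1.61 ± 0.18) and Sgk1 (-1.53 ± 0.32) were lower. The remaining 25 of 28 did not pass. Mycl was lower (-1.11 ± 0.24) and 0 of 20 Myc targets passed.

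The mESC lines R1 and J1 were set against E5.5 epiblast (4 arrays against 2). Here the arrays and not the lines were the replicates, so the p-values do not measure the spread between lines. Of the 10 genes, 8 were higher in mESCs and 1 lower, where 32.2% of all genes passed, 17.6% as higher and 14.6% as lower. None of the 10 overlapped between the groups, as held for 67.5% of all genes. Egr1 was 46.4-fold higher, at 4.53 to 5.05 on the mESC arrays, against -1.91 and 0.42 at E5.5 (5.54 ± 0.72, limma adjusted p = 1.26e-05). The fold was 20.7 without E5.5 replicate 1 and 104 without E5.5 replicate 2. Junb and Atf3 were not well above background on either E5.5 array. Junb was at least 8.97-fold higher in mESCs (limma adjusted p = 1.49e-08) and Atf3 at least 17.5-fold (limma adjusted p = 7.63e-06).

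Fosb (2.78 ± 0.56), Jun (2.28 ± 0.51), Ier2 (1.81 ± 0.26) and Ier3 (2.32 ± 0.29) were also higher, with limma adjusted p of 0.000655 or less for Fosb, Ier2 and Ier3 and 0.00153 for Jun. Without E5.5 replicate 1 the differences of Fosb and Jun were 1.65 and 1.56, and Jun was close to the threshold (limma adjusted p = 0.0491). Fos differed by 3.12 ± 1.22 (limma adjusted p = 0.0406), and by 0.89 without E5.5 replicate 1. Its call was lost in 6 of 15 alternative settings. Besides that array, these were each mESC array left out (differences of 2.98 to 3.26) and no filter on dim probes (limma adjusted p = 0.0589). Myc went the other way, at 0.74 to 1.5 in mESCs, against 2.33 and 2.49 at E5.5 (-1.14 ± 0.29, limma adjusted p = 0.00369). The Myc difference was just under 2-fold with normexp (-0.99) and without R1 replicate 2 (-0.99). Mycn differed by 0.63 (limma adjusted p = 0.00322), less than 2-fold.

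Of 28 other immediate early genes, 21 were higher in mESCs and 2 lower, with a median of 2.17, against 0.06 over all genes. Socs3, a feedback inhibitor of cytokine signalling, was higher by 5.46 ± 0.25, and Tnfaip3 by 4.54 ± 0.31. Egr2 and Fosl1 were not well above background at E5.5 and were at least 17.5-fold and 4.97-fold higher. Of the upstream regulators 5 of 17 were higher, among them Stat3 (3.86 ± 0.20) and Il6st (2.75 ± 0.24). Cultured lines and dissected tissue also differed in stress genes, of which 11 of 16 were higher in mESCs, led by Hspb1 (3.64 ± 0.14). All 10 feeder fibroblast markers were higher in mESCs, and all 7 visceral endoderm markers were lower. The part of these lists in the differences was not tested, and slide and group cannot be told apart.

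E6.5 epiblast was set against E5.5 epiblast on the same slide, where 4.91% of all genes passed, 2.71% as higher and 2.19% as lower. Of the 10 genes, Ier3 was lower at E6.5, at -2.35 and -1.84, against -0.16 and -1.33 at E5.5 (-1.35 ± 0.33, limma adjusted p = 0.0202). It did not pass without E5.5 replicate 1 (-0.76, limma adjusted p = 0.183) or without E6.5 replicate 1 (-1.09, 0.188). Without E6.5 replicate 1, Egr1 (3.13, limma adjusted p = 0.0154) and Jun (2.41, 0.00726) were higher at E6.5 instead. Without E6.5 replicate 2, Egr1 (-0.43) and Jun (-0.20) had the opposite sign, and Fos turned from -1.29 to 0.94 without E5.5 replicate 2 and to 1.56 without E6.5 replicate 1, without passing. Junb and Atf3 were not well above background on either E5.5 array, so fits in which they passed rest on bounds and give no size. Which gene passes at these stages thus changes with the array kept, and it changes with the processing too. With both arrays of each stage kept, Ier3 did not pass with normexp (-0.88, under 2-fold). It did not pass in a fit of the compared arrays alone either (limma adjusted p = 0.155).

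Myc and Mycn did not pass between these stages and had close replicates. Myc read 2.48 and 2.63 at E6.5, against 2.33 and 2.49 at E5.5 (difference 0.15, 95% interval -0.56 to 0.86). Mycn read 5.11 and 4.96 at E6.5, against 4.91 and 4.69 (0.24, -0.15 to 0.62). Of the other immediate early genes 1 of 28 passed, Csrnp1, which was lower (-1.43 ± 0.15). Nascent mesoderm markers were higher at E6.5 in 5 of 6, and visceral endoderm markers passed in 0 of 7. Their part in these values was not tested.

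E7.5 embryonic ectoderm was set against E6.5 epiblast. Myc, Egr1 and Fosb were lower at E7.5 and 0 genes were higher, where 14.8% of all genes passed, 6.32% as higher and 8.53% as lower. Myc read -0.28 and -0.23 at E7.5, against 2.48 and 2.63 at E6.5, and was 7.02-fold lower (-2.81 ± 0.33, limma adjusted p = 3.82e-05). Over the 3 stages Myc thus averaged 2.41 at E5.5, 2.56 at E6.5 and -0.26 at E7.5, while Mycn averaged 4.80, 5.03 and 4.72.

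Egr1 was not well above background at E7.5, at -4.32 and -4.62, against -1.18 and 2.38 at E6.5, and was at least 14.8-fold lower (limma adjusted p = 0.000528). Against E6.5 replicate 1 alone it was at least 4.3-fold lower and against replicate 2 alone at least 50.9-fold, and it passed in both. Fosb was not well above background at E7.5 either and was at least 2.77-fold lower (limma adjusted p = 0.0437). That call was lost in 5 of 13 alternative settings. These were normexp (-0.41, limma adjusted p = 0.453), no filter on dim probes (0.0609), and the omission of either E7.5 array or of E6.5 replicate 2. Fos was not well above background on either E7.5 array and on E6.5 replicate 1 (limma adjusted p = 0.176). Without that E6.5 array, Fos (at least 13.0-fold, limma adjusted p = 0.00716), Jun (-2.54, 0.0017) and Ier2 (-1.14, 0.0377) were lower at E7.5 as well.

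Of 28 other immediate early genes, 8 were lower and 2 higher, with a median of -0.51: Maff (-3.37 ± 0.22), Sgk1 (-2.97 ± 0.39) and the MAP kinase phosphatase gene Dusp1 (-1.78 ± 0.26) were lower and Socs3 (1.89 ± 0.29) was higher. Of 11 Erk feedback and Etv genes, 4 were lower and 0 higher, namely Dusp6 (-2.97 ± 0.25), Spry4 (-2.39 ± 0.53), Etv5 (-2.34 ± 0.21) and Spry1 (-1.81 ± 0.19). Mycl was lower (-1.42 ± 0.29), and of 20 Myc targets only Ccnd2 passed, which was higher (2.80 ± 0.32). Visceral endoderm markers were lower in 7 of 7 and nascent mesoderm markers in 4 of 6, and E7.5 lay on another slide, so stage and slide cannot be told apart.

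EpiSC lines were last set against each tissue, with 5 line means and the tissue arrays in 1 fit. The 3 comparisons share the EpiSC values, so they are given side by side and are not independent. Against E5.5, 3 of the 10 genes were higher in EpiSCs and 2 lower, where 24.1% of all genes passed, 14.7% as higher and 9.44% as lower. Against E6.5, 3 were higher and 2 lower, where 22% of all genes passed, 12.9% as higher and 9.11% as lower. Against E7.5, 4 were higher and 1 lower, where 17.6% of all genes passed, 11.4% as higher and 6.23% as lower. These counts include Junb, whose calls against E5.5 and E7.5 reached 2-fold only through signals not well above background.

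Mycn was lower in EpiSCs than in each tissue, at 3.01 to 4.23 over the EpiSC arrays, against 4.91 and 4.69 at E5.5, 5.11 and 4.96 at E6.5 and 4.67 and 4.77 at E7.5. The differences were -1.30 ± 0.26 (limma adjusted p = 0.00403), -1.53 ± 0.26 (0.00206) and -1.22 ± 0.26 (0.00768) in stage order. The E7.5 call was lost without either E7.5 array (0.0577 and 0.0666). Myc was lower in EpiSCs than at E5.5 (-2.12 ± 0.32, limma adjusted p = 0.000979) and E6.5 (-2.26 ± 0.32, 0.000874). It overlapped with E7.5, with a difference of 0.55 and a 95% interval of -0.17 to 1.26.

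Atf3 was higher in EpiSCs, at -1.08 to 1.90 with a median of 0.31, against -5.61 and -3.09 at E5.5, -4.17 and -1.64 at E6.5 and -3.34 and -2.83 at E7.5, of which only E6.5 replicate 2 was well above background. It was at least 12.4-fold higher than at E5.5 (limma adjusted p = 0.00414) and at least 10.2-fold higher than at E7.5 (0.0234). Against E6.5 the difference was 3.16 ± 0.91 (limma adjusted p = 0.024), and 1.89 without E6.5 replicate 1 (0.256). With slide as a random block Atf3 passed against neither E6.5 (3.04, limma adjusted p = 0.0752) nor E7.5 (3.22, 0.0762). The E7.5 call was also lost without either E7.5 array (0.0994 and 0.151) and the E5.5 call without E5.5 replicate 1 (0.0579).

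Ier3 was higher in EpiSCs than at E5.5 (1.35 ± 0.44, limma adjusted p = 0.036), E6.5 (2.70 ± 0.44, 0.00182) and E7.5 (3.45 ± 0.44, 0.000679). Its level over the tissues averaged -0.74 at E5.5, -2.09 at E6.5 and -2.85 at E7.5. The E5.5 call was lost in 8 of 25 alternative settings, among them slide as a random block (1.42, limma adjusted p = 0.0753), no E5.5 replicate 2 (0.76, 0.321), normexp (0.97, under 2-fold) and the omission of line Wt1, 129C1 or 129Ba1 (0.052 to 0.0593). Junb was not well above background on any E5.5 or E7.5 array, on E6.5 replicate 1 or on some EpiSC arrays, so its sizes are approximate. Junb in EpiSCs was about 1.37-fold higher than at E5.5, with the E5.5 arrays at their lowest detected signal. In the same way it was about 1.14-fold higher than at E7.5. The limma tests used measured signals and passed against E5.5 (adjusted p = 0.00176) and E7.5 (difference 1.32, adjusted p = 0.0482). Both calls thus reached 2-fold only through signals not well above background. The measured difference from E6.5 was 1.32 ± 0.44 (limma adjusted p = 0.0405). The E5.5 call was lost with normexp (0.37, limma adjusted p = 0.122). The E6.5 call was lost in 14 and the E7.5 call in 17 of 25 alternative settings, among them normexp, quantile normalization, another variance model, slide as a random block (limma adjusted p of 0.0884 and 0.106), either array of the stage (0.0538 to 0.341) and the omission of line Wt1, 129Ba1, 129Ba2 or BNa17.

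Egr1 passed against E7.5, where it was at least 18.4-fold higher in EpiSCs (limma adjusted p = 0.00288), and overlapped with E5.5 and E6.5. Its sign against E6.5 turned with the array kept, at -1.47 without E6.5 replicate 1 and 2.10 without replicate 2. Fos, Fosb, Jun and Ier2 passed against no tissue. Their 95% intervals reached 2-fold or more at each stage, except that Ier2 against E6.5 had an interval of -0.89 to 0.77. Fosb was lower in EpiSCs than at E5.5 once E5.5 replicate 1 was left out (-2.46, limma adjusted p = 0.0151).

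**Figure D4:**
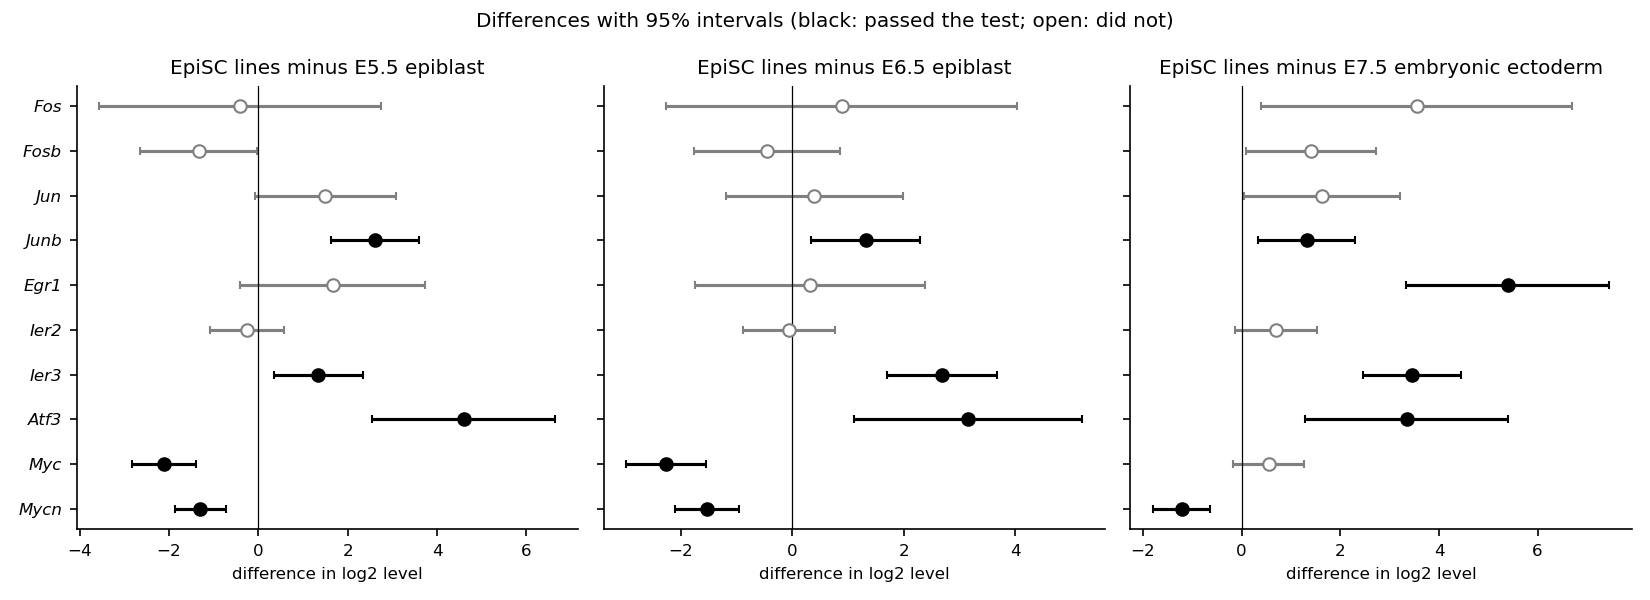
Difference in log2 level with its 95% interval for each gene, EpiSC lines minus E5.5 epiblast, E6.5 epiblast and E7.5 embryonic ectoderm (black passed the test, open did not). Mycn lies below 0 and Junb, Ier3 and Atf3 above 0 in all 3, Myc lies below 0 at E5.5 and E6.5 only, and the intervals of Fos are the widest; intervals of genes below background in tissue rest on values that are bounds.

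Other immediate early genes split in these comparisons, with 9 higher and 3 lower of 27 against E5.5, 9 and 3 against E6.5 and 12 and 2 against E7.5. The AP-1 subunit Fosl2 was at least 13.1-fold higher than at E5.5 and higher by 3.08 ± 0.47 than at E6.5. Fosl1, another AP-1 subunit, was at least 2.41-fold, 3.41-fold and 2.01-fold higher than at E5.5, E6.5 and E7.5. Sgk1 was lower than at E5.5 (-2.50 ± 0.63) and E6.5 (-2.71 ± 0.63), and Maff was higher than at E7.5 (3.87 ± 0.45).

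Of 11 Erk feedback and Etv genes, 4 were lower in EpiSCs than at E5.5, 5 than at E6.5 and 0 than at E7.5, where 2 were higher. Spry4 was lower than at E5.5 (-3.42 ± 0.55) and E6.5 (-3.03 ± 0.55), as was Dusp4 (-2.89 ± 0.47 and -1.67 ± 0.47), while Dusp6 was higher than at E7.5 (1.87 ± 0.29). Of 20 Myc targets, 1 was higher and 3 lower against E5.5, 0 and 5 against E6.5, and 0 and 1 against E7.5, with Nolc1 at -1.22 ± 0.15 and -1.23 ± 0.15 against the first 2 stages. All 10 feeder fibroblast markers were higher in EpiSCs than at E5.5 and E6.5 and 8 of 10 than at E7.5, with sums of 66.5 to 349 on EpiSC arrays, against 7.06 to 7.31, 6.23 to 6.44 and 14.4 to 15.0 in the tissues. Of 7 visceral endoderm markers, 6 were lower in EpiSCs than at E5.5 and 6 than at E6.5. Their part in these differences was not tested, and slide and group cannot be told apart.

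Over the 12 comparisons, 41 of 120 tests of these genes passed, 21 as higher and 20 as lower. Over all genes and the same comparisons, 14.2% of tests passed, 7.71% as higher and 6.53% as lower. Atf3 passed as higher in 5 comparisons and as lower in 0, Junb as higher in 5 and as lower in 2, and Myc and Mycn each passed as lower in 5 and as higher in 0. Higher and lower refer to the side named first in each comparison, so the directions have no common reference. The comparisons share groups, so these counts are not independent of each other.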

How the data were processed

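RNA of 24 samples was labelled with Cy3 and measured on single-colour Agilent arrays of 62976 spots, 3671 of them controls. Agilent Feature Extraction 10.5.1.1 is named in the submitters' processing notes as the scan software, and the authors deposited 1 file of processed signals, an intensity on a linear scale, per array. The authors also deposited log2 values, scaled to each array's 75th percentile and centred on each probe's median; each column matched its own array at r of at least 0.99997.

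Here log2 of the processed signal minus each array's 75th percentile was used. Probes were named through their accession (27235 probes, 20660 genes). A gene was represented by its probe with the highest mean signal among those without a flagged value, which left 20616 genes, and 168 probes lacked a value on some array. To enter a fit, a gene needed 1 group in that fit with both arrays well above background. The number of arrays, not read depth, limits the precision.

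Tests used limma 3.58.1 in R 4.3.3 with data.table version 1.17.8, two-sided, with Benjamini-Hochberg adjustment over all genes in the fit, and a gene passed at an adjusted p below 0.05 and at least 2-fold. All 24 arrays as 12 groups gave the tests on IWP2, 2i, R1 and J1, the lines against 129C1, mESCs against E5.5 and the stages. Line means gave the others. A ± in a comparison gives the standard error of the log2 difference. A fold given as "at least" concerns a side with 0 arrays well above background. Each array of that side then took its lowest detected signal, or the probe's own signal if higher, before means were compared. The other side kept its measured signals, also on arrays not well above background, where the fold is only approximate. All limma tests used the measured signals of both sides, not these bounds.

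The 10 genes and the lists were chosen with earlier results of these data known, so list counts stand beside all genes without a set test. The rule for naming took the 10 genes always, up to 4 passing genes per list with the largest change, and the 3 genes most like each member in r over group means, searched among genes detected on both arrays in 6 or more groups. One gene that this rule names is not reported here. Of 160 listed genes 159 were found. Alternatives covered background correction (normexp with offset 50), quantile normalization, the authors' values, the filter, variance model, fold minimum, arrays in the fit, slide and replicate blocks, and each array or line left out. The files hold no mean spot signal, so normexp used the median signals. The calls were tested on simulated data. Figures were drawn with matplotlib 3.10.9 in Python 3.11.15.

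Replicate numbers were checked as pairs over all genes. Over 10 pairs of groups the correlation of same-numbered deviations ran from -0.02 to 0.18, with 2 over 0.1. The highest was between E6.5 and E5.5, where Fos, Egr1, Jun and Fosb were higher on replicate 2 at both stages. The numbers were not used as pairs in the main tests, and correlations over all genes do not settle pairing for single genes.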

Additional observations from a re-analysis of the deposited data

How the results depend on the processing

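Of 2273 recomputed values of the 10 genes, 47 had the opposite sign to the value in the report, and 0 of these passed on either side. They lay in 7 of the 12 comparisons, 15 of them in the lines derived with Wnt inhibitor against the original lines, 9 in E7.5 against E6.5, 8 in EpiSCs against E6.5 and 7 in E6.5 against E5.5. With 1 array or line left out, 79 of 1210 recomputed calls changed, and under the other settings 36 of 1063. The number of the 10 genes that passed moved over 1.5 times in these cases. With normexp it was 1 for IWP2 (against 0), 1 for the lines derived with Wnt inhibitor against 129C1 (against 3), 2 for 2i (against 4), 0 for E6.5 against E5.5 (against 1) and 3 for EpiSCs against E5.5 (against 5). With only the compared arrays it was 2 for IWP2 and 0 for E6.5 against E5.5, with quantile normalization 2 for E6.5 against E5.5, and without tissue arrays, chosen after the data were seen, 1 for IWP2. With slide as a random block it was 3 for EpiSCs against E6.5 and 3 against E7.5 (against 5 each). Normexp shrinks low signals, and the median range of group means over the 10 genes was 2.80 with it, against 5.05. Leaving out 1 array or line gave 0 to 1 for IWP2, 0 to 1 for the lines derived with Wnt inhibitor against the original lines and 0 to 3 against 129C1, 5 to 7 for EpiSCs against mESCs, 1 to 2 for 2i, 0 to 0 for R1 against J1, 7 to 9 for mESCs against E5.5, 0 to 3 for E6.5 against E5.5, 2 to 6 for E7.5 against E6.5, and 4 to 5, 3 to 5 and 2 to 5 for EpiSCs against E5.5, E6.5 and E7.5. Where 1 array was left on a side, it was assumed to vary like the other groups. The replicate block gave the same counts (0, 3, 4, 0, 9, 1 and 3) in the 7 fits over all arrays. Over all genes, the number that passed moved from 586 to as few as 272 with normexp for IWP2, from 1697 to 579 for the lines against 129C1, from 1971 to 616 for 2i, from 76 to 38 for R1 against J1, from 4851 to 2218 for mESCs against E5.5, from 740 to 304 for E6.5 against E5.5, from 2240 to 866 for E7.5 against E6.5, and from 3560, 3248 and 2598 to 1681, 1753 and 1295 for EpiSCs against E5.5, E6.5 and E7.5. It was 3621 for EpiSCs against mESCs and 1959 without J1, and 205 for the lines derived with Wnt inhibitor against the original lines, with 40 without 129Ba2 and 626 without 129C1. With no fold minimum the number rose to 3908 for the lines against 129C1, 3960 for 2i, 8466 for mESCs against E5.5, 1352 for E6.5 against E5.5, 4140 for E7.5 against E6.5, and 5743, 5458 and 4245 for EpiSCs against E5.5, E6.5 and E7.5. For R1 against J1 it was 204 with only the arrays compared and 121 without R1 replicate 1. For EpiSCs against mESCs it was 1969 with normexp and 2024 without R1. The cause was not tested.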
